A study of Mus musculus with 6 samples.

Results

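The circadian clock genes Arntl, Npas2, Per1, Per2, Per3, Cry1, Nr1d1, Dbp, Bhlhe40 and Bhlhe41 were followed in primary mouse renal tubule epithelial cells (RTECs) with and without TGF-β1. These 10 genes are 10 of the 46517 in the count files, each found by its mouse symbol, and all 10 had enough reads to be among the 15862 genes tested. They were picked with their TGF-β1 values already known, so the values of that contrast are given for them as a description and without a test. The cells were grown from kidneys of wild-type FvB mice in medium with 10% serum and 20 ng/ml EGF. By the labels the mice were aged 4 to 6 weeks. The methods describe somewhat younger males, a sex that the Y-linked and Xist reads given below do not bear out. At 70% confluence every culture went into serum-free medium for 24 h. The TGF-β1 group (n = 3) then received 50 ng/ml TGF-β1 for 24 h, and the CTL group (n = 3) is labelled control with no vehicle named. Whether each culture came from its own animal is not stated, so p-values measure the spread between these cultures only. Each group was sampled at a single time, and a change in the level of a cycling transcript cannot be told apart from a change in its phase.

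The mammalian clock is a feedback loop of transcription. ARNTL (also called BMAL1) pairs with CLOCK or NPAS2 and switches on genes that carry an E-box, among them the Per and Cry genes, whose proteins return to the nucleus and block the pair. A second loop runs through NR1D1 (REV-ERBα), which represses Arntl, and BHLHE40 and BHLHE41 (DEC1 and DEC2) bind E-boxes and repress there. Kidney tubules are known for a strong clock that times sodium, water and solute handling.

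Promoter stretches are shown because these elements are the points at which the loop acts on itself. RefSeq promoters of GRCm38.p6, from 250 bases before to 50 bases after the transcript start, were found for 8 of the 10 genes, all but Per2 and Bhlhe40. The E-box CACGTG occurred in those of Bhlhe41, Cry1 and Per1. A related element, CACGTT, occurred in those of Nr1d1 and Cry1, the D-box (TTATGTAA or TTACGTAA) at 2 places in that of Per3, and the half-site AGGTCA of ROR and REV-ERB receptors in those of Arntl and Per1. Capitals mark the element, read on either strand, in the following stretches.
Bhlhe41 E-box: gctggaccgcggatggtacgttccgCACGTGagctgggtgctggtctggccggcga
Cry1 E-box: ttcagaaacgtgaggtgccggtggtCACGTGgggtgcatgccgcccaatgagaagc
Per1 E-box: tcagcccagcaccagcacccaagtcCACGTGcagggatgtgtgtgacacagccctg
Nr1d1 related element: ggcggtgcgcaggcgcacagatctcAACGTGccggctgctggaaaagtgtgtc
Per3 first D-box: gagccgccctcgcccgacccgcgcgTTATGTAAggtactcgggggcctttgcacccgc
Per3 second D-box: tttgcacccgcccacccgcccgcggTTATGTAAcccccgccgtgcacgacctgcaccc
Arntl half-site: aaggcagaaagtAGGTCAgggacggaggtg
The Bhlhe41 stretch lies at chr6:145865543-145865598 on the minus strand, with the E-box 153 bases before the start. That of Cry1 is at chr10:85185084-85185139 on the minus strand, 60 bases before the start, and that of Per1 at chr11:69098758-69098813 on the plus strand, 166 bases before it. These are starts of RefSeq transcripts, and by the gene positions given below those used for Per1 and Bhlhe41 lie inside the gene. The Nr1d1 element, on the opposite strand here, begins 28 bases before the start in chr11:98775378-98775430 on the minus strand. The first 50 bases of that Nr1d1 transcript were not found in GENCODE. The Per3 elements begin 205 and 158 bases before the start in chr4:151044838-151044895 and chr4:151044791-151044848 on the minus strand. The Arntl half-site lies 32 bases into the transcript in chr7:113207530-113207559 on the plus strand. Of 32851 promoters of this length, 7.15% held CACGTG, 4.68% CACGTT, 1.06% a D-box and 16.3% AGGTCA. The Cry1 E-box and its related element do not share bases. A match describes letters in this window and is not a measured binding site.

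Libraries held 28313080 to 34183497 reads on genes. The floor used here, 3 reads, corresponded to 0.0878 to 0.106 CPM, where CPM is reads of a gene scaled by the total reads on genes. The CPM of marker and sex-linked genes and the CPM per kb of exon below were scaled for library composition as well as library size. With a Benjamini-Hochberg adjusted p-value under 0.05 from edgeR's quasi-likelihood test, 793 genes were higher and 1061 lower with TGF-β1. With scaling by library size only, 508 were higher and 1467 lower. The TGF-β1 targets Smad7, Skil and Fn1 rose, by log2 fold changes of 0.55, 0.76 and 1.04 (adjusted p = 0.014, 0.00379 and 0.00379), while Ccn2 had 0.18 (adjusted p = 0.22, and 0.0438 with the replicate number as a block) and Tgfbi -0.18 (adjusted p = 0.747). Replicate 2 stood apart in both groups. Its 2 cultures had 142 and 151 CPM summed over 4 Y-linked genes, against 0.061 to 0.172 in the other 4, and Xist was lower in replicate 2 (207 to 237 CPM) than elsewhere (516 to 634 CPM). The methods describe male mice, which the near absence of Y-linked reads in those other 4 cultures and the Xist reads in replicate 2 go against. Sex-linked reads thus differed by replicate number, and their part in the clock gene values was not tested. Summed over 8 tubule epithelial markers, replicate 2 had 1263 to 1335 CPM and the others 2462 to 3655. Summed over 6 fibroblast markers it had 695 to 1082 against 335 to 459, although of the 5 tested only Col1a2, Pdgfrb and Dcn were highest there and Pdgfra and Thy1 were lowest. By group, the epithelial sum was 1335 to 3655 CPM in CTL and 1263 to 3053 with TGF-β1, and the fibroblast sum 335 to 695 and 364 to 1082. Of the 8 epithelial markers, Cdh16 and Pax8 fell with TGF-β1, by log2 fold changes of -1.50 and -0.77 (adjusted p = 0.0092 and 0.0044), and the other 6 did not pass. With the replicate number as a block 5 of the 8 were lower past the threshold, against 19.1% of all genes. Epcam, Cdh1 and Pax2 were then added, at -0.15, -0.18 and -0.24 (adjusted p = 0.0376, 0.0194 and 0.0125). The 6 proximal tubule markers summed to less with TGF-β1, at 35.4 to 49.1 CPM against 77 to 92.6 in CTL. Of the 3 that could be tested, Lrp2 and Aqp1 fell, by log2 fold changes of -0.93 and -2.91 (adjusted p = 0.0165 and 0.0092). Cubn did not, at 0.093 (adjusted p = 0.698). Slc34a1 and Slc22a6 had 2 to 10 and 2 to 8 reads per library, and Slc5a2 was at 3 reads or fewer in every culture. Endothelial markers summed to at most 2.68 CPM and leukocyte markers to at most 19.5, with Tie1 and Cd3e at 3 reads or fewer in every culture. The part of cell makeup in the clock gene values was not tested. In such bulk samples, fewer cells of a type and less RNA per cell cannot be told apart.

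The clock genes did not move as a block. Arntl and Bhlhe41 were about 2 times higher in all TGF-β1 cultures, Nr1d1, Per2 and Bhlhe40 were moderately higher, Npas2 was lower, and Per1, Per3, Cry1 and Dbp differed little. Of the 10 genes, 2 (Arntl and Bhlhe41, both higher) were past the adjusted p-value of 0.05, a threshold passed by 11.7% of all genes tested (5% higher, 6.69% lower). Fitting the replicate number as a block, so that cultures were compared within numbers, put 6 past it (Arntl, Bhlhe40, Bhlhe41, Nr1d1 and Per2 higher, Npas2 lower) against 34.2% of all genes. Because the genes were picked on this contrast, nothing is read from these counts. Of the 10 genes 8 had the same direction in all 3 same-numbered pairs, against 63% of all genes. Values did not overlap between the groups for 6 of the 10 genes, 5 higher and 1 lower, against 35.1% of all genes (17.2% higher, 18% lower). The median log2 fold change was 0.31 for the 10 genes and -0.0028 for all genes, and the median of its absolute value was 0.45 and 0.17. Without replicate 1 in both groups, 0 of the 10 genes and 0 of all genes were past the threshold in edgeR, and 2 of the 10 had an unadjusted p-value under 0.05. Without replicate 2 in both groups 4 were past it, Arntl, Bhlhe40, Bhlhe41 and Nr1d1, against 14.9% of all genes.

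**Figure D1:**
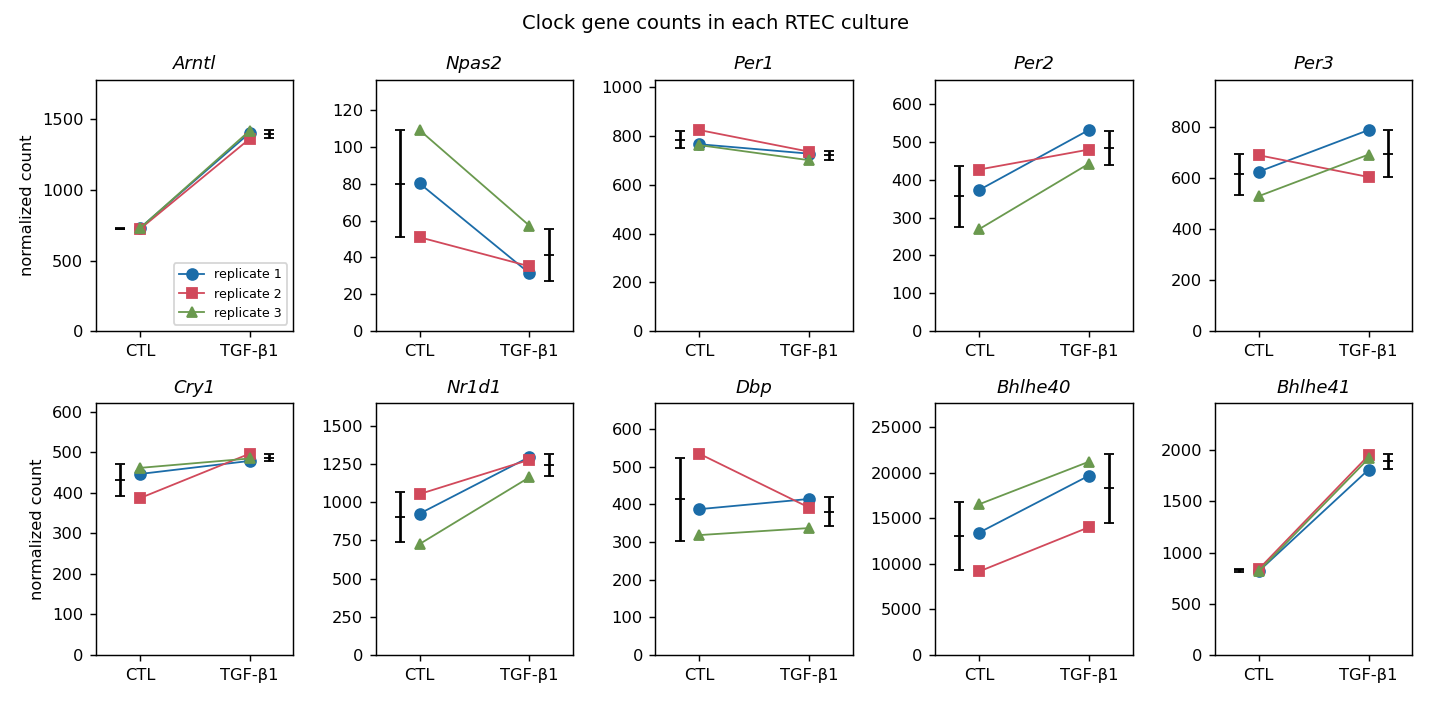
Normalized read counts (vertical axes, each starting at 0) of the 10 clock genes in CTL and TGF-β1 cultures, with lines joining cultures of the same replicate number and black bars for the mean ± SD of 3 cultures. Arntl goes from 722 to 729 in CTL to 1361 to 1419 with TGF-β1, and the lines of Bhlhe40 run nearly parallel with replicate 2 lowest in both groups.

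Arntl (ENSMUSG00000055116.7, GRCm38 chromosome 7, 113207465 to 113314126, plus strand) encodes the obligatory activator of the loop. Its normalized counts, reads scaled for library size and composition, were 729, 722 and 727 in CTL replicates 1, 2 and 3, and 1403, 1361 and 1419 with TGF-β1. The groups lay far apart, and the spread within each was small, at 726 ± 3.69 against 1394 ± 29.7 (SD, n = 3 each). The log2 fold change was 0.94 (standard error 0.048), a ratio of 1.92. Same-numbered pairs gave 0.94, 0.91 and 0.96, and fits that left out 1 culture gave 0.93 to 0.95.
Npas2 (ENSMUSG00000026077.14, chromosome 1, 39193731 to 39363236, plus strand), a partner that can stand in for CLOCK, went the other way. It had 80.2, 51 and 109 normalized counts in CTL and 31.5, 35.2 and 57.3 with TGF-β1. Every pair was lower with TGF-β1, by log2 ratios of -1.33, -0.53 and -0.92, but the groups overlapped because replicate 3 of the TGF-β1 group exceeded replicate 2 of CTL. The log2 fold change was -0.94 (standard error 0.36), and with the replicate block its standard error was 0.19. Leaving out 1 culture gave -1.26 to -0.66. These are 31 to 100 reads per library, the fewest of the 10 genes.

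Per1, Per2 and Per3 encode the period proteins of the repressor complex. Per2 (ENSMUSG00000055866.9, chromosome 1, 91415982 to 91459324, minus strand) had 373, 427 and 269 normalized counts in CTL and 531, 480 and 442 with TGF-β1. All TGF-β1 cultures were above all CTL cultures, the nearest being 427 and 442. The log2 fold change was 0.44 (standard error 0.18), with pairs at 0.51, 0.17 and 0.71. It was 0.28 without CTL replicate 3 and at most 0.59 without any other single culture. Per1 (ENSMUSG00000020893.16, chromosome 11, 69095217 to 69109960, plus strand) had 766, 824 and 762 normalized counts in CTL and 727, 735 and 700 with TGF-β1. It was lower without overlap, but by a log2 fold change of only -0.12 (standard error 0.061). Per3 (ENSMUSG00000028957.11, chromosome 4, 151003652 to 151044665, minus strand) had 626, 690 and 530 in CTL and 789, 605 and 693 with TGF-β1. Its groups overlapped. Pairs 1 and 3 were higher by 0.33 and 0.39 on the log2 scale and pair 2 was lower by -0.19, for a log2 fold change of 0.18 (standard error 0.14). Leaving out CTL replicate 3 or TGF-β1 replicate 1 gave 0.080, and leaving out CTL replicate 2 gave 0.27.
Cry1 (ENSMUSG00000020038.9, chromosome 10, 85131700 to 85185064, minus strand), the cryptochrome partner of the period proteins, had 446, 386 and 461 normalized counts in CTL and 478, 496 and 484 with TGF-β1. The TGF-β1 cultures were all higher, by a log2 fold change of 0.17 (standard error 0.087), and most of the distance came from pair 2 (0.36, against 0.10 and 0.071 in pairs 1 and 3). Without CTL replicate 2 it was 0.10.

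Nr1d1 (ENSMUSG00000020889.11, chromosome 11, 98767932 to 98775333, minus strand), the heme receptor that represses Arntl, had 925, 1054 and 726 normalized counts in CTL and 1296, 1278 and 1163 with TGF-β1. The groups did not overlap, and the log2 fold change was 0.47 (standard error 0.14), with pairs at 0.49, 0.28 and 0.68. Nr1d1 and its target Arntl were thus both higher in all 3 pairs. Of the 3077 exon bases of Nr1d1, 263 lie over exons of Thra on the opposite strand, and the strand setting of the counting is not stated.
Dbp (ENSMUSG00000059824.9, chromosome 7, 45705088 to 45710203, plus strand) encodes an activator that binds D-boxes and is a direct E-box output of the clock. It had 387, 535 and 318 normalized counts in CTL and 414, 392 and 337 with TGF-β1. The groups overlapped, and the log2 fold change of -0.12 (standard error 0.20) rested on CTL replicate 2, since it was 0.11 without that culture. It was -0.27 without CTL replicate 3, -0.18 without TGF-β1 replicate 1 and -0.036 without TGF-β1 replicate 3. Of its 2993 exon bases, 539 lie over exons of Sphk2 on the opposite strand.

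Bhlhe41 (ENSMUSG00000030256.10, chromosome 6, 145858243 to 145865558, minus strand), the DEC2 repressor, had the largest log2 fold change of the 10 genes. Its normalized counts were 818, 838 and 819 in CTL and 1810, 1948 and 1919 with TGF-β1. The groups lay far apart, at 825 ± 11.5 and 1892 ± 72.9 (SD, n = 3 each), with a log2 fold change of 1.20 (standard error 0.051) and pairs at 1.15, 1.22 and 1.23. Fits without 1 culture gave 1.17 to 1.23. Exons of Gm43909 on the opposite strand cover 1280 of its 6720 exon bases and had 5 to 13 reads per library.
Its paralog Bhlhe40 (ENSMUSG00000030103.10, chromosome 6, 108660629 to 108666925, plus strand), DEC1, had 13419, 9158 and 16533 normalized counts in CTL and 19670, 14010 and 21203 with TGF-β1. Each pair was higher, by log2 ratios of 0.55, 0.61 and 0.36, yet the groups overlapped because the cultures differed by number. The log2 fold change was 0.49 with a standard error of 0.25, and 0.51 with 0.059 when the replicate number was a block. Without the block it was 0.29 on leaving out CTL replicate 2 and 0.70 on leaving out CTL replicate 3.

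**Figure D2:**
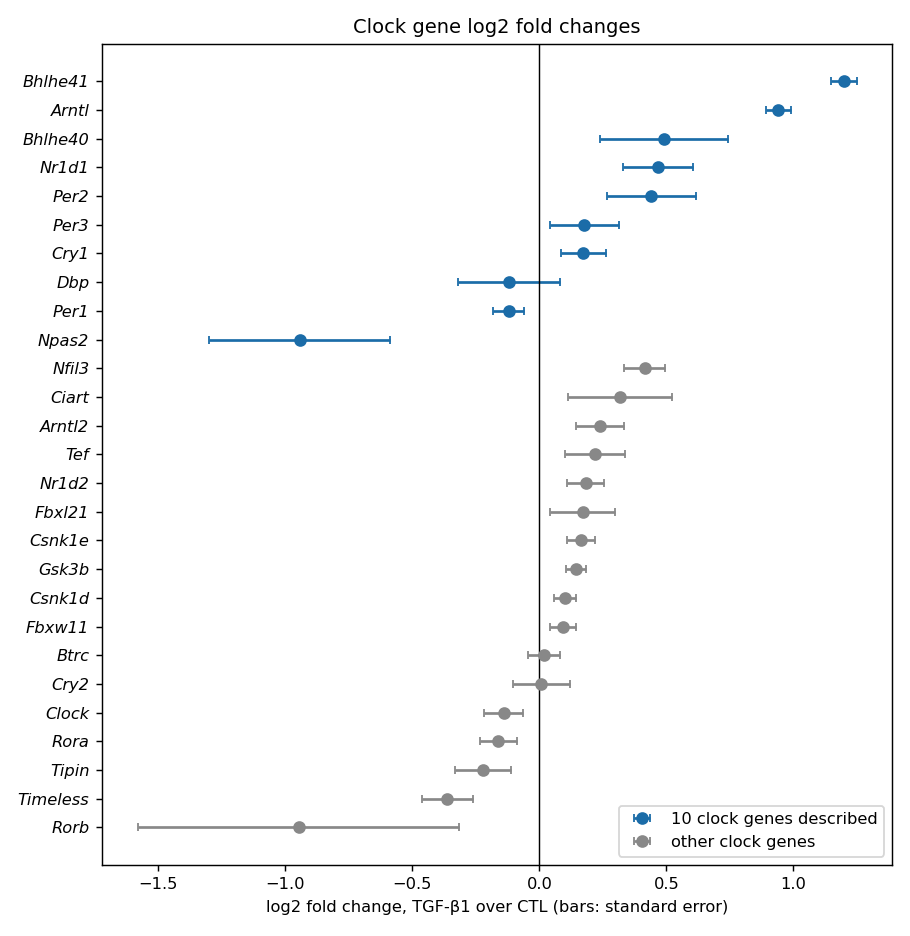
Log2 fold change of TGF-β1 over CTL (horizontal axis, bars are the standard error from edgeR with 3 cultures a group) for the 10 clock genes described (blue) and the other clock genes named in the text that could be tested (grey). Bhlhe41 at 1.20 and Arntl at 0.94 lie farthest to the right with short bars, and Npas2 at -0.94 lies to the left.

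The other clock genes were then examined, a list of 20 that excludes the 10 above, of which 19 could be tested. Nfil3, the repressor that competes with DBP for D-boxes, was the 1 gene that rose. It had 1159, 1229 and 1347 normalized counts in CTL and 1526, 1681 and 1768 with TGF-β1, without overlap. The log2 fold change was 0.41 with a standard error of 0.082 (adjusted p = 0.0284). No other gene of the list passed in either direction, with 5 higher (Nfil3 included) and 2 lower genes at an unadjusted p-value under 0.05 in edgeR. DESeq2 put 2 higher genes, Nfil3 and Gsk3b, and 0 lower genes past the threshold. The call of Nfil3 rests on nearly the full set of cultures, since it was lost on leaving out CTL replicate 1 or 2 or any TGF-β1 culture (adjusted p up to 0.122), and on leaving out any replicate number in both groups. The median log2 fold change of the list was 0.09, and the median of its absolute value, 0.17, was the same as that of all genes. The list was fixed with earlier results of these data known and leaves out the 10 genes picked on this contrast. Its counts and medians therefore describe what was left and are no test of the clock as a whole.
Among the activators, Clock had a log2 fold change of -0.14 (adjusted p = 0.288) and Arntl2, the paralog of Arntl, 0.24 (adjusted p = 0.157). The repressors Cry2, Nr1d2 and Ciart had 0.0069, 0.18 and 0.32 (adjusted p = 0.979, 0.158 and 0.367). The ROR receptors, which activate Arntl at the sites that NR1D1 occupies, had -0.16 for Rora and -0.95 for Rorb (adjusted p = 0.2 and 0.384). Rorb had 10 to 56 reads per library. Tef, a relative of Dbp, had 0.22 (adjusted p = 0.285), and Hlf, with 1 to 8 reads per library, was not tested.
The kinases that act on clock proteins, Csnk1d, Csnk1e and Gsk3b, had 0.10, 0.16 and 0.14 (adjusted p = 0.189, 0.115 and 0.0714, and 0.0398 for Gsk3b in DESeq2). The ubiquitin ligase subunits Fbxl21, Btrc and Fbxw11, which remove cryptochrome and period proteins, had 0.17, 0.019 and 0.093 (adjusted p = 0.436, 0.882 and 0.307). Timeless and Tipin, better known for protecting replication forks, had -0.36 and -0.22 (adjusted p = 0.0693 and 0.239).
With the replicate block 5 of the 19 were higher and 4 lower past the threshold, against 15.1% and 19.1% of all genes. Arntl2, Tef, Nfil3, Csnk1e and Gsk3b were higher (adjusted p = 0.0202, 0.0163, 0.000412, 0.046 and 0.0284). Rorb and Timeless were among the lower genes (adjusted p = 0.0243 and 0.0272).

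Of 12 genes that the clock is known to drive in many tissues, 1 rose and 4 fell, against 5% and 6.69% of all genes. Coq10b, a coenzyme Q-binding protein, rose by 0.30 on the log2 scale, with a standard error of 0.064 (adjusted p = 0.0333). Nampt, the rate-limiting enzyme of NAD salvage, went from 1015, 1025 and 960 normalized counts in CTL to 787, 706 and 795 with TGF-β1, which on the log2 scale is -0.39 with a standard error of 0.068 (adjusted p = 0.0205). Scnn1a, the alpha subunit of the epithelial sodium channel, went from 116, 86.5 and 108 to 56.9, 32.1 and 50.7, or -1.15 on the log2 scale with a standard error of 0.25 (adjusted p = 0.0355). Por, the electron donor of cytochrome P450 enzymes, fell by 0.23 on the log2 scale (adjusted p = 0.0399), and Lonrf3, with 27 to 45 reads per CTL library and 3 to 6 per TGF-β1 library, had a log2 fold change of -2.91 (adjusted p = 0.0089). The median log2 fold change of the 12 genes was -0.25, against -0.0028 for all genes. All 12 had the same direction in all 3 pairs, against 63% of all genes. This list too was fixed with earlier results of these data known. Its counts and median therefore describe these 12 genes and are no test of clock output. With the replicate block 2 of the 12 were higher and 8 lower past the threshold, against 15.1% and 19.1% of all genes. Leaving out 1 culture moved the 4 lower genes to as few as 1 (without CTL replicate 1) or 0 (without TGF-β1 replicate 1, where 6 had an unadjusted p-value under 0.05) and to 2 without CTL replicate 2 or TGF-β1 replicate 3. The call of Scnn1a was lost without any single culture (adjusted p up to 0.146), that of Por without any but TGF-β1 replicate 2, that of Nampt without CTL replicate 1 or 2 or TGF-β1 replicate 1, and that of Lonrf3 without TGF-β1 replicate 1. The rise of Coq10b was lost without any culture but TGF-β1 replicate 2, and also with scaling by library size only. Leaving out replicate 1 or replicate 3 in both groups left 0 of the 12 past the threshold in edgeR, with 1 higher and 3 lower, and 2 higher and 5 lower, at an unadjusted p-value under 0.05.

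Levels of different genes were compared as CPM per kb of exon. Bhlhe40 led by far, at 87.5 ± 24.9 in CTL and 123 ± 25.4 with TGF-β1 (SD, n = 3 each), and Nr1d1 followed at 9.26 ± 1.69 and 12.8 ± 0.74. In CTL the next 4, Per1 (4.40), Dbp (4.36), Cry1 (4.08) and Bhlhe41 (3.88), each overlapped the next in order. Arntl stood below them at 3.05, Per3 (2.02) and Per2 (1.92) overlapped, and Npas2 was last at 0.53 CPM per kb. With TGF-β1 Bhlhe41 (8.89) and Arntl (5.85) came next after Nr1d1, and each was separated from its neighbours. Cry1 followed at 4.60, Per1 (4.04) and Dbp (4.02) overlapped, and Per2 (2.61) and Per3 (2.29) overlapped above Npas2 (0.27).
Paralogs were then set against each other within each library. Clock exceeded Npas2 per kb by 10.9 to 27.3 times in CTL and 21.1 to 39.9 times with TGF-β1, so that Clock was the far more abundant partner transcript in all 6 cultures. Arntl and Arntl2 were near equal per kb in CTL (ratio 0.968 to 1.12), and Arntl was 1.61 to 1.79 times higher with TGF-β1. Bhlhe40 exceeded Bhlhe41 by 15.6 to 28.8 times in CTL and 10.3 to 15.8 times with TGF-β1. Per1 exceeded Per2 per kb by 2.01 to 2.94 times in CTL and 1.42 to 1.65 times with TGF-β1. Nr1d1 stayed below Nr1d2 in every library, at ratios of 0.465 to 0.727.

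**Figure D3:**
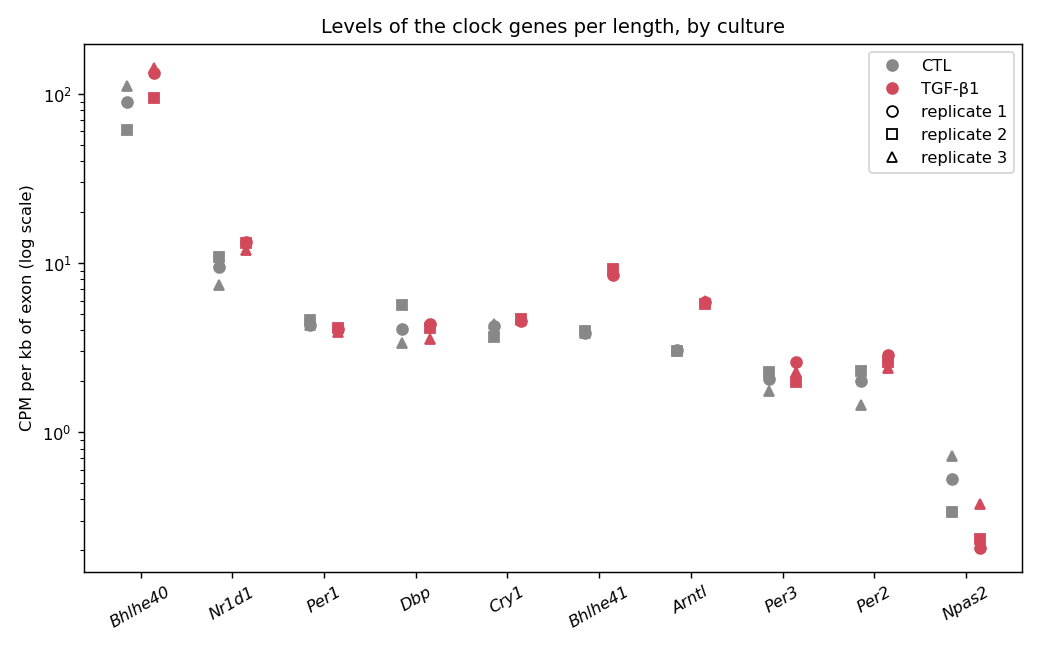
CPM per kb of exon (vertical axis, log scale) of the 10 clock genes in each culture, ordered by the CTL mean, with CTL in grey, TGF-β1 in red and marker shapes for the replicate number. Bhlhe40 is the highest in every culture, and Npas2 the lowest.

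Cultures also differed by replicate number, a contrast that played no part in picking the genes. What the number stands for is not stated. Bhlhe40 was the 1 of the 10 genes that differed between numbers (adjusted p = 0.000881, edgeR, condition in the model), where 18.1% of all genes tested did. On the log2 scale it lay 0.31 above the group means in replicate 3, 0.11 above them in replicate 1 and at -0.42 in replicate 2, and it was past the threshold in every alternative run. Arntl and Bhlhe41, by contrast, deviated by -0.021 to 0.014 and -0.038 to 0.033 (adjusted p = 0.902 and 0.676). The highest deviation of the 10 genes was 0.51, for Npas2 in replicate 3 (adjusted p = 0.0565). Nr1d1, Dbp and Per2 had their lowest values in replicate 3 in both groups (adjusted p = 0.096, 0.115 and 0.144). That only Bhlhe40 passed was not stable. Without TGF-β1 replicate 2, 6 of the 10 genes passed (Bhlhe40, Dbp, Npas2, Nr1d1, Per2 and Per3), against 20.9% of all genes tested. Without TGF-β1 replicate 3, 5 passed against 25.9% of all genes, and without CTL replicate 2, 2 passed against 20.7%. 3 of the 19 other clock genes differed by number, among them Rorb and Tef (adjusted p = 0.00844 and 0.0357).
Of the 8 epithelial markers, 5 (Krt8, Krt18, Epcam, Cdh1 and Cldn4) were ordered by number as Bhlhe40 was, highest in replicate 3 and lowest in replicate 2. The other 3 were not by their mean deviation over both groups, where Cdh16 was highest in replicate 1 and Pax2 and Pax8 were lowest in replicate 3. Within the TGF-β1 group alone, Cdh16 was highest in replicate 3 and lowest in replicate 2, as Bhlhe40 was, and Pax8 was lowest in replicate 2. Krt8, a keratin of simple epithelia, had 17450, 6280 and 29059 normalized counts in CTL replicates 1, 2 and 3 and 20332, 9604 and 25058 with TGF-β1, and Epcam had 5529, 2004 and 9116 and then 5161, 1694 and 8379. Their part in the Bhlhe40 values was not tested. With replicate 2 left out in both groups the Bhlhe40 values did not overlap, at 13419 and 16533 against 19670 and 21203.

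**Figure D4:**
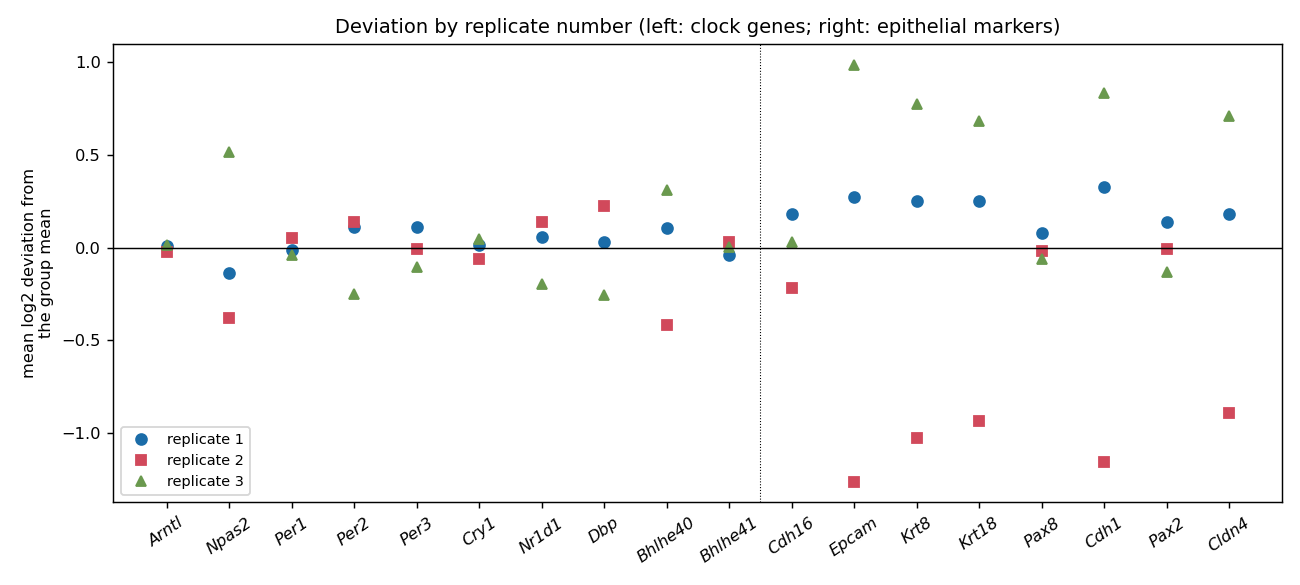
Mean log2 deviation of each replicate number from the means of its groups (vertical axis) for the 10 clock genes and, right of the dotted line, all 8 epithelial markers. Bhlhe40 is low in replicate 2 and high in replicate 3, as are 5 of the 8 markers but not Cdh16, Pax8 and Pax2, while the points of Arntl and Bhlhe41 lie between -0.038 and 0.033.

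Genes with the most similar pattern were sought among 10911 genes with a mean of at least 5 CPM, by the root mean square distance between log2 values over the 6 cultures, each gene centred on its mean. For Bhlhe41, the member with the largest positive log2 fold change, they were Gadd45a (distance 0.0477), Snx24 (0.0767) and 4833422C13Rik (0.108). Gadd45a, a stress-induced growth arrest gene, had 2032, 2058 and 1909 normalized counts in CTL and 4539, 4469 and 4697 with TGF-β1. For Npas2, the member with the largest negative one, they were Tfap2b (0.158), Spire2 (0.166) and Ldhb (0.18). Tfap2b, a transcription factor of the distal nephron, had 540, 342 and 666 normalized counts in CTL and 275, 232 and 381 with TGF-β1, lowest in replicate 2 of both groups. Distances were larger for Npas2, whose own counts were few.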

How the data were processed

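RNA sequencing counts of 6 RTEC cultures were analysed, 3 CTL and 3 TGF-β1. From 100 ng RNA the authors made poly(A) libraries, read them as single-end 50-bp reads, trimmed these with Trim Galore, aligned them to GRCm38 with STAR 2.4.1d and counted reads per gene with HTSeq 0.6.1. The deposited values are these raw counts, without normalization. Summary lines (reads that were not unique, ambiguous or off genes) made up 25.4% to 25.9% of the alignments and were left out. Intervals of depth cover counting error only, as reads carried no molecular identifiers.

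Symbols, positions and union exon lengths came from GENCODE M21 (GRCm38), which matched 46005 of 46517 identifiers. Promoters came from RefSeq (GRCm38.p6). In R 4.3.3, edgeR 4.0.16 was run with filterByExpr, TMM scaling, robust quasi-likelihood fits and two-sided tests, and calls at an adjusted p-value under 0.05 (Benjamini-Hochberg, 15862 genes). The F statistic gave the standard errors. Normalized counts are TMM-scaled to the geometric mean library size. The replicate number was tested with 2 degrees of freedom beside condition. Ratios of pairs used a pseudocount of 0.5.

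Alternatives were DESeq2 1.42.0, RLE scaling, scaling by library size only, a minimum of 1 count, a minimum of 10 counts in each library, a replicate block and leaving out each culture. Leaving out a number in both groups was added after seeing the data. Same-numbered cultures were more alike: deviations from group means correlated at 0.308 to 0.663 across genes between them and at -0.593 to 0.198 otherwise. Whether the cultures were paired by design is not stated. Members and gene lists were chosen with earlier results of these data known. Named genes were the members, all other clock genes, output genes past the threshold, 6 TGF-β1 targets, and the 3 nearest patterns of the 2 extreme members. Some genes of these lists are counted but not reported here by name. On simulated counts for the TGF-β1 contrast (15700 genes, 200 changed by 1 on the log2 scale) 85% were recovered and 7.1% of calls were false. The simulated counts had the same dispersion for all genes and no replicate number effect, unlike the data, so these rates check the code and do not carry over. Figures used matplotlib 3.10.9.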

Additional observations from a re-analysis of the deposited data

How the results depend on the processing

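The alternatives changed which genes passed more than the size of the differences, and the cause was not tested. Of 60 log2 fold changes of the 10 clock genes under alternatives that kept all cultures, 57 moved by less than the spread between cultures and 3 by more, all with library size only (Arntl 0.87, Per1 -0.20, Bhlhe41 1.12). Dbp changed sign on leaving out CTL replicate 2 (log2 fold change 0.11) or replicate 2 in both groups (0.088), and ranged from -0.27 to 0.11 on leaving out 1 culture. Cry2 and Btrc changed sign with library size only (-0.068 and -0.056), without replicate 3 in both groups (-0.0076 and -0.0096) and on leaving out 1 culture (Cry2 from -0.080 to 0.080, Btrc from -0.030 to 0.064), with adjusted p-values of 0.602 or more (edgeR) in each fit where the sign changed. With the replicate block, which takes up differences by replicate number, 5 of the 10 clock genes were higher and 1 lower past the threshold in place of 2 and 0. Other clock genes went from 1 and 0 to 5 and 4, output genes from 1 and 4 to 2 and 8, and all genes from 793 and 1061 to 2388 and 3037. DESeq2 gave 2 higher other clock genes and 2 higher output genes, and 1 other clock gene that differed by number in place of 3. Library size only gave 2 lower other clock genes, 0 higher output genes and 508 higher genes in all. The unfiltered fit gave 4 clock genes that differed by number in place of 1, with 12.9% of all genes in place of 18.1%. Leaving out cultures, singly or by number, gave 0 to 4 higher and 0 lower clock genes, 0 to 1 higher and 0 to 1 lower other clock genes, 0 to 2 higher and 0 to 5 lower output genes, and 109 to 516 higher and 186 to 807 lower genes in all on leaving out 1 culture, or 0, 95 and 1084 higher and 0, 190 and 1290 lower without replicates 1, 3 and 2 in both groups. Apart from these and Ccn2, the block changed no other call among the clock, output and TGF-β1 target genes. The replicate number effect then ran from 1808 to 4206 genes in all, 1 to 6 clock genes and 2 to 4 other clock genes. The 0 among all genes came without replicate 1 in both groups, where 756 higher and 1182 lower genes had an unadjusted p-value under 0.05 (edgeR). Npas2, with 31 to 100 reads per library, is the member whose values depth limits most.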

Other observations

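Some clock genes share exon bases with genes on the opposite strand, and those neighbours were read out in the same files. Thra, a thyroid hormone receptor gene that overlaps Nr1d1, had 1090, 1125 and 776 raw reads in CTL replicates 1, 2 and 3 and 739, 651 and 767 with TGF-β1, where Nr1d1 had 958, 1096 and 666 and then 1276, 1234 and 1239. Between the groups Thra was lower where Nr1d1 was higher, except that Thra in CTL replicate 3 was close to the TGF-β1 values in raw reads. These reads are not scaled for depth. CTL replicate 3 was the smallest library, at 28313080 reads on genes, and TGF-β1 replicate 3 the largest, at 34183497. Within CTL both genes were highest in replicate 2 and lowest in replicate 3. Sphk2, a sphingosine kinase gene that overlaps Dbp, had 1121 to 1450 raw reads per library. 0610040F04Rik, over 118 exon bases of Bhlhe40, had 3 to 7 raw reads per library.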
